A study of Mus musculus with 6 samples.

Results

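Calcium pumps, exchangers and stores were followed in RNA-Seq of mouse aortic valves through 10 genes, chosen by name from the 23107 genes of the deposited count table. They are the sodium-calcium exchangers Slc8a1, Slc8a2 and Slc8a3, the sarco/endoplasmic reticulum calcium pumps Atp2a1, Atp2a2 and Atp2a3, the pump regulators Pln and Sln, the release channel Ryr2 and the store protein Casq2. Slc8a3 was put on the list because its level was higher in the mutants, so its difference between the groups is given as a description and without a test. The study compared 3 control libraries with 3 mutant libraries, all from aortic valves of outbred mice aged 4 months. The mutants carried caAcvr1, a transgene for a constitutively active form of the BMP type I receptor AcvRI, together with Nfatc1Cre, a Cre recombinase in the Nfatc1 locus that switches the transgene on. The controls are labelled wild type, while the methods of the study name mice from the same crosses that carried either of these alleles alone or neither, and the genotypes that were sequenced are not given. Nfatc1Cre acts in the endocardium and its valve descendants and at the leaflet-wall junction, and the study saw no recombination in the myocardium or smooth muscle. Neither the labels nor the methods say whether a library held the valves of 1 mouse or of several, so p-values measure the spread between these libraries only.

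In muscle cells, calcium that enters through channels of the surface membrane opens ryanodine receptors, which release more calcium from the sarcoplasmic reticulum. The pumps of the Atp2a family (SERCA) return it to the store, where calsequestrin binds it, and the exchangers of the Slc8a family (NCX) carry it out of the cell. Phospholamban and sarcolipin, the products of Pln and Sln, are small membrane proteins that hold the pump back. Valve leaflets themselves hold little muscle, but their base is fixed to the muscular wall of the ventricle, and the atria lie close by.

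Library totals ran from 32218345 to 55728852 fragments. Acvr1 itself was read at 49.1 to 67.4 CPM, counts scaled to a common library size, in the controls and 49.9 to 57.9 CPM in the mutants, and its deposited row does not separate the transgene from the endogenous gene. The valve interstitial markers were abundant in every library, with a sum over all 8 genes (led by Dcn) of 13600 to 14600 CPM in the controls and 12200 to 15800 CPM in the mutants. The 15 cardiac muscle markers (led by Myh6) were present as well, each of them in every library. Their sum ran from 14600 to 45700 CPM in the controls and from 23300 to 48800 CPM in the mutants, and was lowest in control replicate 2. In bulk tissue, fewer cells of a type and less RNA per cell cannot be told apart.

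The upstream sequences of 4 members are shown because 3 of them (Pln, Casq2 and Ryr2) are genes of the heart muscle store that were lowest and highest in the same libraries, whereas Slc8a3 was the member picked for its difference between the groups. Each is the stretch of 250 bases before the RefSeq transcription start on GRCm38.p6, 5′ to 3′ on the strand of the gene. Pln lies on the plus strand (chr10:53337436-53337685), Casq2 on the plus strand (chr3:102086165-102086414), Ryr2 on the minus strand (chr13:12106946-12107195) and Slc8a3 on the minus strand (chr12:81333181-81333430). Capitals mark every match, on either strand, to 7 motifs: the E-box CANNTG, the GATA motif AGATAA, the TATA motif TATAAA, the cyclic AMP response element TGACGTCA, the GC-box GGGCGG, and the MEF2 and CArG motifs of muscle genes.
Pln: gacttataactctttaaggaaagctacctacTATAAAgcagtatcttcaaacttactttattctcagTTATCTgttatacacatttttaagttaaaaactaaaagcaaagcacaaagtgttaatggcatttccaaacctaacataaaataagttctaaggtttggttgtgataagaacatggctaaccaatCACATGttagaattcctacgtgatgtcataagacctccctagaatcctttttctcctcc
Casq2: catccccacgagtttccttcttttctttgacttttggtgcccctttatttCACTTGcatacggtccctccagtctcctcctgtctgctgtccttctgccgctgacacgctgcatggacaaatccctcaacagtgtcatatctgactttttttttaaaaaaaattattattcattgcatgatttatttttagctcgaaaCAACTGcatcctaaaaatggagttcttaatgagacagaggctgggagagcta
Ryr2: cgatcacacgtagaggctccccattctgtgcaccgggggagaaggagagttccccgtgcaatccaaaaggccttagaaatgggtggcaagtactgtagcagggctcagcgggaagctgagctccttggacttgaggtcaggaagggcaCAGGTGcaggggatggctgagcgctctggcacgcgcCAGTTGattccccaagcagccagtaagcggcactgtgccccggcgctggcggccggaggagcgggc
Slc8a3: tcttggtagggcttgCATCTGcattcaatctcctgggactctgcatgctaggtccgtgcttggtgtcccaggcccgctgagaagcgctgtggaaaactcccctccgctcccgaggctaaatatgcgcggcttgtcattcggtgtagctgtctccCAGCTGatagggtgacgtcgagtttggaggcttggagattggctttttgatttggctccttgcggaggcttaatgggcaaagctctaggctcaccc
The Pln window held 1 E-box, 1 GATA motif and 1 TATA motif, while the windows of Casq2, Ryr2 and Slc8a3 held 2 E-boxes each and none of the other motifs. Atp2a2 and Slc8a1 were lowest and highest in those libraries too. There was no window for Atp2a2 among the upstream sequences used here. The window of Slc8a1, which held 1 E-box and 1 GATA motif, is not shown. The bases after the RefSeq start of Slc8a1 were not found in the transcripts of the gene used here. Of 32851 windows of the same length in the RefSeq table, 66.2% held an E-box, 9.99% the GATA motif and 12.4% the TATA motif. The MEF2 motif was in 0.508% and the CArG motif in 1.47% of them, and in none of the 4 windows shown. The cyclic AMP response element was in 1.55% and the GC-box in 32.7%. A match is a match of letters only. The GC content was 32.8% for Pln and 41.6% for Casq2, against 63.2% for Ryr2 and 56.0% for Slc8a3.

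Of the 10 genes, 9 reached the minimum of 10 counts in at least 3 libraries and entered the edgeR fit with 15354 genes in all. Slc8a2 did not. In that fit, 0 of the 8 members that were open to a test had an adjusted p under 0.05, where the share over all genes was 0% (0 of 15354), 3.45% of all genes had an unadjusted p under 0.05, and DESeq2 called 0.169%. At an unadjusted p under 0.05 there was 1 such member, Slc8a1. The fold changes of all 8 lay above 0 on the log2 scale with a median of 0.26, and the median over all genes tested was 0.01. Over all genes tested, 8013 lay above 0 and 7341 below. Slc8a1, Atp2a2, Pln, Ryr2 and Casq2 were each lowest in control replicate 2 and highest in mutant replicate 1, so that the 8 fold changes are not 8 separate observations. Without control replicate 2 the fold change fell below 0 for Atp2a2 (-0.08), Pln (-0.10), Sln (-0.02), Ryr2 (-0.06) and Casq2 (-0.20). It stayed above 0 for Slc8a1 (0.41), Atp2a1 (0.34) and Atp2a3 (0.23).

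Per kilobase of annotated exon, the level of the 10 genes spanned several orders of magnitude. Atp2a2, the pump isoform of heart muscle and, as a splice form, of most other cells, was highest, with a median of 1080 CPM per kb over the 6 libraries and a range of 500 to 1670. Sln followed at 719 CPM per kb (189 to 1230), Pln at 466 (174 to 753) and Casq2, the cardiac calsequestrin, at 205 (96.1 to 336). These 4 genes lay above at least 98.4% of the 13858 tested genes with a known length. The ranges of each of them overlapped with that of its neighbour in this order, although Pln was above Casq2 in all 6 libraries and Atp2a2 above Sln in 5.

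A second group was far lower. Atp2a3 had a median of 36.3 CPM per kb (20.9 to 51.6), with no overlap with Casq2 above it or Ryr2 below it. Ryr2, the ryanodine receptor of the heart, was read at 5.31 CPM per kb (1.72 to 6.52) and Slc8a1, the exchanger of heart muscle and smooth muscle, at 2.93 (1.56 to 4.05), with overlapping ranges. Ryr2 was above Slc8a1 in each of the 6 libraries. The lowest members were Slc8a3 at 0.844 CPM per kb (0.469 to 1.51), Atp2a1 at 0.576 (0.15 to 0.957) and Slc8a2 at 0.0234 (0 to 0.0776). Slc8a3 and Atp2a1 overlapped, and Slc8a3 was the higher of the pair in 5 libraries. The exons annotated for Ryr2 sum to 28.8 kb, against 16.8 kb in its longest transcript. With the longest transcript as the length, the median of Ryr2 was 9.10 CPM per kb and the order of the 10 genes was the same.

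**Figure D1:**
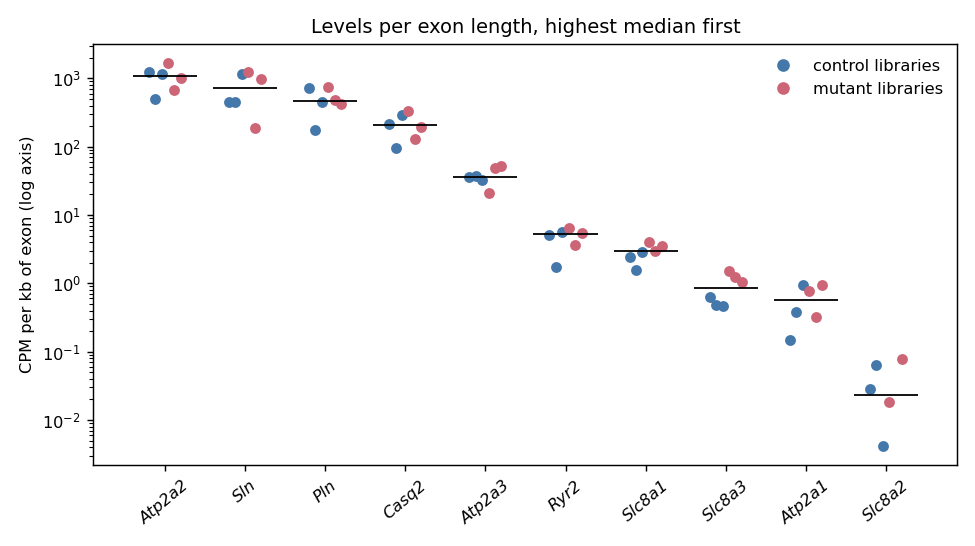
Level of each gene per kilobase of annotated exon, on a log axis, in the 3 control and 3 mutant libraries (points), with the median of the 6 libraries as a line; a level of 0 (Slc8a2 in 1 mutant) is not drawn. Atp2a2, Sln, Pln and Casq2 lie above the other genes, from a median of 1080 down to 205 CPM per kb, and Slc8a2 is lowest at 0.0234.

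Among the exchangers, Slc8a1 (chromosome 17, 81373105 to 81738377) was read at 46.3, 29.4 and 53.9 CPM in controls 1, 2 and 3, and at 76.2, 56.3 and 66.1 CPM in the corresponding mutant replicates. Every mutant lay above every control, although the step from the highest control to the lowest mutant was small. Over all genes tested, 4.04% had every mutant above every control, and 8.87% had groups that did not overlap in either direction. The mean was 43.2 ± 12.5 CPM (SD, n = 3) over the controls and 66.2 ± 9.98 CPM (SD, n = 3) over the mutants, a log2 difference of 0.62 (SE 0.23) in the fit. The unadjusted p of Slc8a1 in the edgeR test was 0.0322 and the adjusted p was 0.999, so that it did not pass. Its log2 fold change was 0.41 without control replicate 2, the library in which it was lowest, and the adjusted p ran from 0.347 to 1 over the 15 alternative settings. Genes on the opposite strand that overlap exons of Slc8a1 have no row of their own in the table, and the strand setting of the authors' counting is not given in the sources used here.

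Slc8a3 (chromosome 12, 81197915 to 81333180), an exchanger best known from brain and skeletal muscle, was read at 3.41, 2.55 and 2.50 CPM in controls 1, 2 and 3, from 183, 129 and 115 counts. In the corresponding mutants it was read at 8.03, 6.50 and 5.59 CPM, from 416, 257 and 178 counts. This separation is the reason for its place on the list. Its log2 fold change was 1.25 (SE 0.25), with extremes of 1.10 when mutant replicate 1 was left out and 1.41 when control replicate 1 was. With the cardiac marker score as a covariate it was 1.20 (SE 0.25). Per 1000 CPM of the summed cardiac markers Slc8a3 was read at 0.0832, 0.175 and 0.0547 CPM in the controls and 0.165, 0.279 and 0.162 CPM in the mutants, so that the groups overlapped in that ratio, with a 5.10-fold range against 3.21-fold before this scaling.

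Slc8a2, the exchanger of neurons, was close to absent. It had 8, 17 and 1 counts in controls 1, 2 and 3, and 5, 0 and 13 counts in the corresponding mutants. The count of 0 in mutant replicate 2 allows a level of up to 0.0759 CPM (3 counts), a limit that covers counting error only. The groups overlapped, and no fold change is given.

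Slc8a1 therefore made up most of the exchanger transcripts per kilobase, with 78.6%, 74.3% and 85.8% of the sum over the 3 genes in the controls and 72.7%, 71.1% and 75.7% in the mutants. Slc8a3 contributed 20.5%, 22.7% and 14.0% in the controls and 27.0%, 28.9% and 22.6% in the mutants. Although the level of Slc8a3 separated the groups, its share did not, by the near tie of control replicate 2 and mutant replicate 3. The mean share of Slc8a3 was 19.1% ± 4.50 (SD, n = 3) in the controls and 26.2% ± 3.26 (SD, n = 3) in the mutants. The difference in the share of Slc8a3 was 7.11 percentage points, and 4.59 without control replicate 3. For Slc8a1 it was -6.42, and -3.29 without that library. The share of Slc8a3 was not tested, since the gene was picked for its level.

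Cell type markers are given beside Slc8a1 and Slc8a3. The sum over the 8 macrophage markers (led by Lyz2, none at 0) was 1260 to 1410 CPM in the controls and 1670 to 1830 CPM in the mutants. In 5 of the 8 all mutants lay above all controls, against 4.04% of all genes tested, and 0 of the 8 had an adjusted p under 0.05 in edgeR. The neuron markers (led by Stmn2) summed to 39.2 to 47.0 CPM in the controls and 37.5 to 48.1 CPM in the mutants, with Syt1, Elavl3 and Th at 0 in some libraries. The Schwann cell markers (led by Mbp) summed to 63.9 to 82.3 CPM and 55.0 to 77.4 CPM. For melanocytes, which live in mouse valves, the sums were 27.7 to 174 CPM in the controls and 82.9 to 198 CPM in the mutants, with Dct the highest and none of the 6 genes at 0. The part of these cells in the levels of Slc8a1 and Slc8a3 was not tested.

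**Figure D2:**
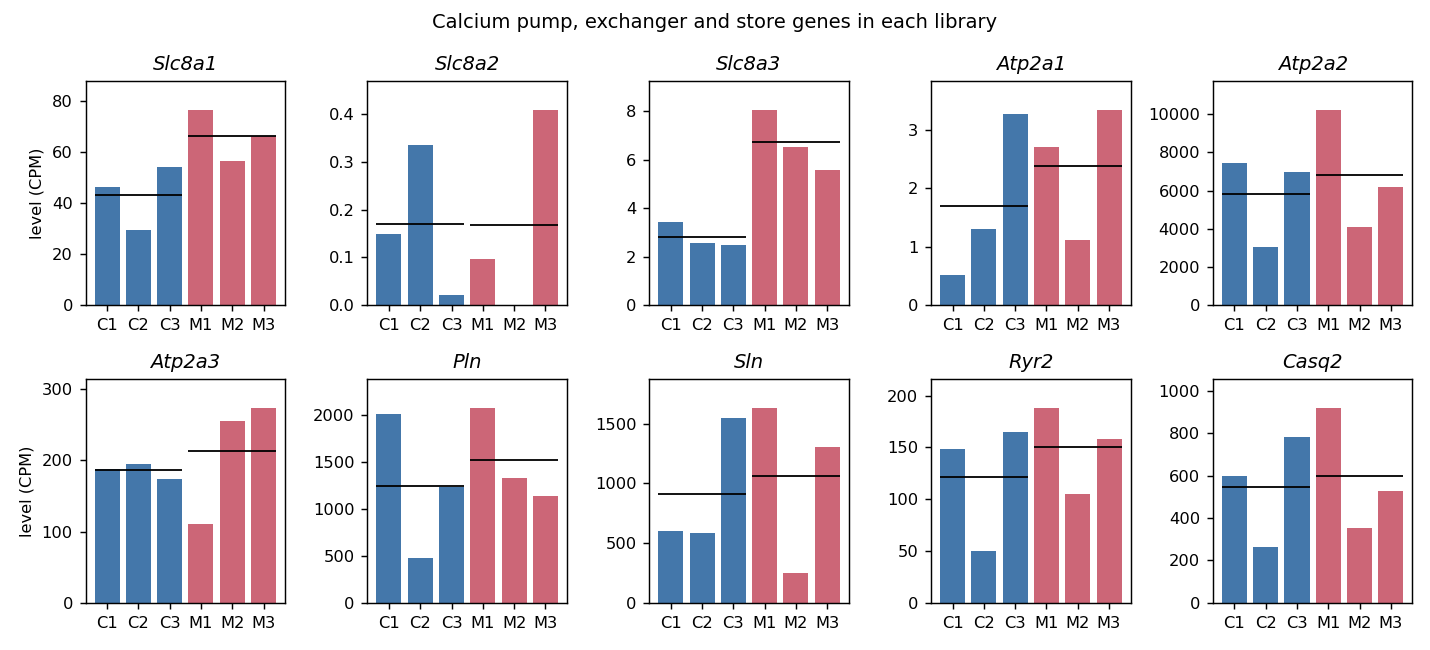
Level in CPM of each of the 10 genes in control replicates 1 to 3 (C1 to C3, blue) and mutant replicates 1 to 3 (M1 to M3, red), with the group means as horizontal lines; each panel has its own axis from 0. Slc8a1 and Slc8a3 are higher in all 3 mutants than in all 3 controls, and in the other 8 genes the groups overlap.

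Among the pumps, Atp2a2 (chromosome 5, 122453513 to 122502225) took between 0.317% and 0.992% of all fragments of a library. It was read at 7430, 3040 and 6970 CPM in controls 1, 2 and 3, and at 10200, 4080 and 6170 CPM in the corresponding mutants. The groups overlapped widely, with the lowest value in control replicate 2 and the next lowest in mutant replicate 2. In edgeR the log2 fold change was 0.23 ± 0.49 (SE) with an adjusted p of 0.999, smaller than its standard error. It turned to -0.18 when mutant replicate 1 was left out and to -0.08 when control replicate 2 was.

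Atp2a3 (chromosome 11, 72961169 to 72993044), the pump of blood cells, endothelium and some epithelia, had another pattern. The 3 controls were close to each other at 188, 195 and 174 CPM, whereas the mutants were spread, with 111 CPM in replicate 1 and 255 and 273 CPM in replicates 2 and 3. In edgeR the log2 fold change was 0.20 ± 0.31 (SE) with an adjusted p of 0.999. Without mutant replicate 1 it was 0.51, and both remaining mutants then lay above every control. The lymphocyte markers (led by Cd79a) were highest in the same 2 mutants, with a sum over 8 genes of 36.8 and 21.1 CPM in mutant replicates 2 and 3, against 6.27 CPM in mutant replicate 1 and 4.61 to 18.3 CPM in the controls. The 7 platelet markers (led by Pf4) summed to 147 and 137 CPM in mutant replicates 2 and 3, against 80.8 CPM in mutant replicate 1 and 74.0 to 85.2 CPM in the controls. The sums of the 8 endothelial markers (led by Pecam1) were 1790 to 2690 CPM in the controls and 2010 to 2370 CPM in the mutants. None of the genes of these 3 lists was at 0 in any library. The part of these cells in the level of Atp2a3 was not tested.

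Atp2a1 (chromosome 7, 126445858 to 126463108), the pump of fast skeletal muscle, was read at 0.522, 1.31 and 3.26 CPM in controls 1, 2 and 3, and at 2.70, 1.11 and 3.33 CPM in the corresponding mutants, from 28 to 150 counts. Its values differed by 6.37-fold among the libraries, and the groups overlapped. In edgeR the log2 fold change was 0.49 ± 0.70 (SE) with an adjusted p of 0.999. It was 0.06 when control replicate 1 was left out and 1.37 when control replicate 3 was. An exon of Atp2a1 overlaps one of Rabep2 on the opposite strand, and whether reads of Rabep2 are in these counts was not tested. Of the 14 skeletal muscle markers, 7 stayed under 1 CPM in every library, among them the fast myosins Myh2 and Myh4, which were at 0 in some. The other 7 reached between 1.19 and 1250 CPM in their highest library. All mutants lay below all controls in 2 of the 10 that were tested (Myh8 and Tnnt3, named after their values had been seen), against 4.83% of all genes tested. The sum over the list was 89.6 to 1370 CPM in the controls and 114 to 614 CPM in the mutants, with Acta1, which heart muscle also uses, as the highest gene. The part of skeletal muscle in the level of Atp2a1 was not tested.

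Within the pump family, Atp2a2 made up 97.2%, 93.1% and 97.1% of the transcripts per kilobase in controls 1, 2 and 3, and 98.7%, 93.2% and 95.1% in the corresponding mutants. Atp2a3 held nearly all of the rest, from 1.24% in mutant replicate 1 to 6.85% in control replicate 2. The share of Atp2a1 was at most 0.0897%. The mean share of Atp2a2 was 95.8% ± 2.34 (SD, n = 3) in the controls and 95.7% ± 2.79 (SD, n = 3) in the mutants (two-sided exact permutation test, p = 1, where 3 against 3 cannot go below 0.1). The p for Atp2a3 was 1 and that for Atp2a1 was 0.9 in the same exact test.

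Of the release channel and the store, Ryr2 (chromosome 13, 11553102 to 12106945) was read at 148, 49.6 and 165 CPM in controls 1, 2 and 3, and at 188, 105 and 158 CPM in the corresponding mutants. Casq2 (chromosome 3, 102086415 to 102146514), which buffers calcium beside that channel, was read at 596, 263 and 783 CPM in the controls and 918, 351 and 525 CPM in the mutants. Both genes were lowest in control replicate 2, next lowest in mutant replicate 2 and highest in mutant replicate 1, as Atp2a2 was. The log2 fold change was 0.31 (SE 0.44) for Ryr2 and 0.13 (SE 0.47) for Casq2, and edgeR gave both an adjusted p of 0.999. Without control replicate 2 they were -0.06 and -0.20, so that neither had a stable direction.

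The ratio of Casq2 to Ryr2 per kilobase varied less than either gene. It was 42.4, 55.8 and 50.1 in controls 1, 2 and 3, and 51.5, 35.4 and 35.0 in the corresponding mutants, a 1.59-fold range over the 6 libraries, against 3.49-fold for Casq2 and 3.79-fold for Ryr2. Mutant replicates 2 and 3 lay below every control and mutant replicate 1 lay among them. On the log2 scale the difference was -0.30, mutants minus controls (two-sided exact permutation test, p = 0.3), and it was -0.48 without mutant replicate 1.

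The level of these genes moved with the cardiac muscle markers. Per 1000 CPM of the summed 15 markers, Atp2a2 was read at 181, 209 and 153 CPM in the controls and 209, 175 and 179 CPM in the mutants, a 1.37-fold range against 3.35-fold before this scaling. For Casq2 the range was 1.30-fold in place of 3.49-fold. These ratios were formed after the data had been seen. Ryr2 had the narrowest spread within the controls, with 3.61, 3.41 and 3.61 CPM per 1000 CPM of markers, and it was at 3.85, 4.49 and 4.58 in the mutants. Every mutant lay above every control in this ratio, with a log2 difference of 0.28 (two-sided exact permutation test, p = 0.1, and no smaller p is possible with 3 against 3). The marker sum holds Nppa, which was read at 12300 CPM in control replicate 3 and at 1500 to 4230 CPM in the others. Whether the groups separate without Nppa in the sum was not tested. No share over all genes was computed for the ratio to the 15 markers. Ryr2 was 1 of 9 members set in it, and in the other 8 the groups overlapped. Of these, 4 genes of heart muscle were compared in the same way, with a log2 difference of 0.29 for Pln, -0.19 for Sln, 0.06 for Atp2a2 and -0.02 for Casq2. In the same exact test p was 0.4 for Pln, 0.6 for Sln and 1 for Atp2a2 and Casq2. For Ryr2, leaving out 1 library at a time gave differences of 0.233 to 0.357. The difference for Pln was 0.089 without mutant replicate 2 and 0.532 without control replicate 1. In the edgeR fit with the cardiac marker score as a covariate, the log2 fold change of Ryr2 was 0.19 (SE 0.09, adjusted p = 0.998). In that fit the log2 fold change was 0.01 (SE 0.21) for Atp2a2 and -0.10 (SE 0.18) for Casq2.

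**Figure D3:**
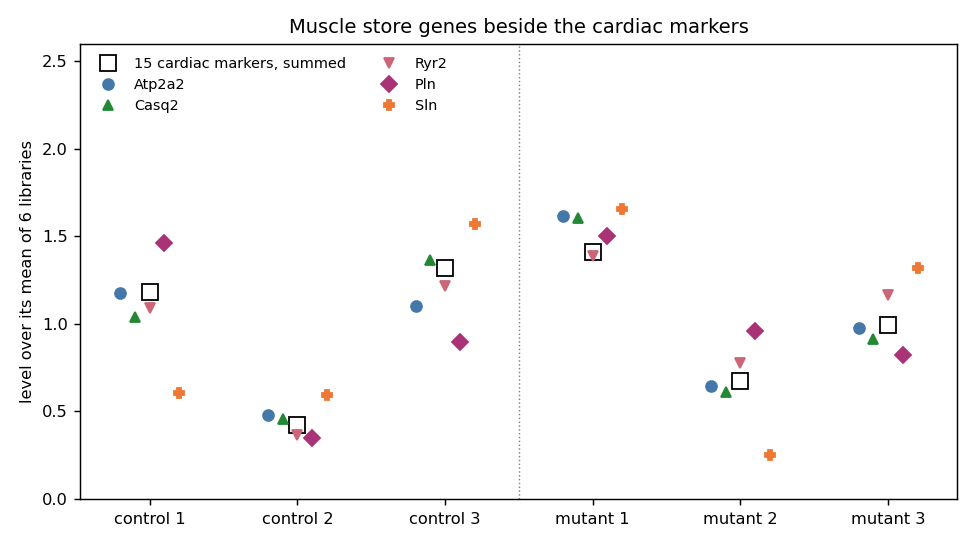
Level of the 5 muscle store genes and of the summed 15 cardiac muscle markers in each library, each divided by its own mean over the 6 libraries. Atp2a2, Casq2 and Ryr2 follow the markers, which are lowest in control replicate 2 (14600 CPM) and highest in mutant replicate 1 (48800 CPM), while in control replicate 1 and mutant replicate 2 Pln lies above the markers and Sln below them.

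Of the pump regulators, Pln (chromosome 10, 53337667 to 53345987) was read at 2020, 481 and 1240 CPM in controls 1, 2 and 3, and at 2080, 1330 and 1140 CPM in the corresponding mutants. Sln (chromosome 9, 53850164 to 53854560) was read at 598, 585 and 1550 CPM in the controls and 1630, 249 and 1300 CPM in the mutants. The groups overlapped for both. The log2 fold change was 0.28 (SE 0.51) for Pln and 0.22 (SE 0.69) for Sln, and edgeR gave both an adjusted p of 0.999. Sln turned to -0.23 without mutant replicate 1 and Pln to -0.10 without control replicate 2. Pln lies inside Cep85l on the opposite strand, with overlapping exons, and Cep85l has no row in the table.

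The ratio of Pln to Atp2a2, which in heart muscle bears on how far the pump is held back, was 0.600, 0.348 and 0.392 per kilobase in controls 1, 2 and 3. In the corresponding mutants it was 0.450, 0.721 and 0.409. The groups overlapped, and the log2 difference was 0.23 (two-sided exact permutation test, p = 0.5), or -0.0183 without mutant replicate 2. The ratio of Sln to Atp2a2 was 0.371, 0.887 and 1.02 in the controls and 0.737, 0.282 and 0.972 in the mutants. Its log2 difference was -0.25 (two-sided exact permutation test, p = 0.6), and it was 0.282 without mutant replicate 2.

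Pln and Sln did not rise and fall together. The ratio of Sln to Pln in CPM was 0.295 in control replicate 1 and 0.187 in mutant replicate 2, while in the other 4 libraries it was between 0.783 and 1.25. Sln is the regulator of the atria, and Pln is highest in the ventricle. Light chains of the myosin of either chamber, taken from the cardiac marker list after the values had been seen, had a like pattern. The atrial light chains Myl4 and Myl7 summed to 2420, 2160 and 6240 CPM in controls 1, 2 and 3, and to 6160, 1290 and 5610 CPM in the corresponding mutants. The ventricular light chains Myl2 and Myl3 summed to 4780, 659 and 2740 CPM in the controls and 3590, 3450 and 2450 CPM in the mutants. The ratio of the atrial to the ventricular sum was 0.505 in control replicate 1 and 0.373 in mutant replicate 2, and between 1.71 and 3.28 in the others. The same 2 libraries, 1 of each group, were thus low in Sln over Pln and in the atrial over the ventricular light chains.

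Set against the atrial light chains, Sln was nearly level, with ratios of 0.194 to 0.271 over the 6 libraries, a 1.40-fold range in place of 6.52-fold. For Sln the range against all 15 cardiac markers, summed, was 3.75-fold. Its ratio to Nppa, also on that list, was not formed. Against the ventricular light chains its ratios covered a 12.3-fold range. Pln ran from 0.387 to 0.730 against the ventricular light chains, a 1.89-fold range, and over 5.23-fold against the atrial ones. The range of Pln was 2.11-fold against the sum of all 15 markers, close to that against the ventricular light chains. The light chains are given as a description over 6 libraries that share the dissection of each valve, and the part of atrial and ventricular tissue in the levels of Pln and Sln was not tested.

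**Figure D4:**
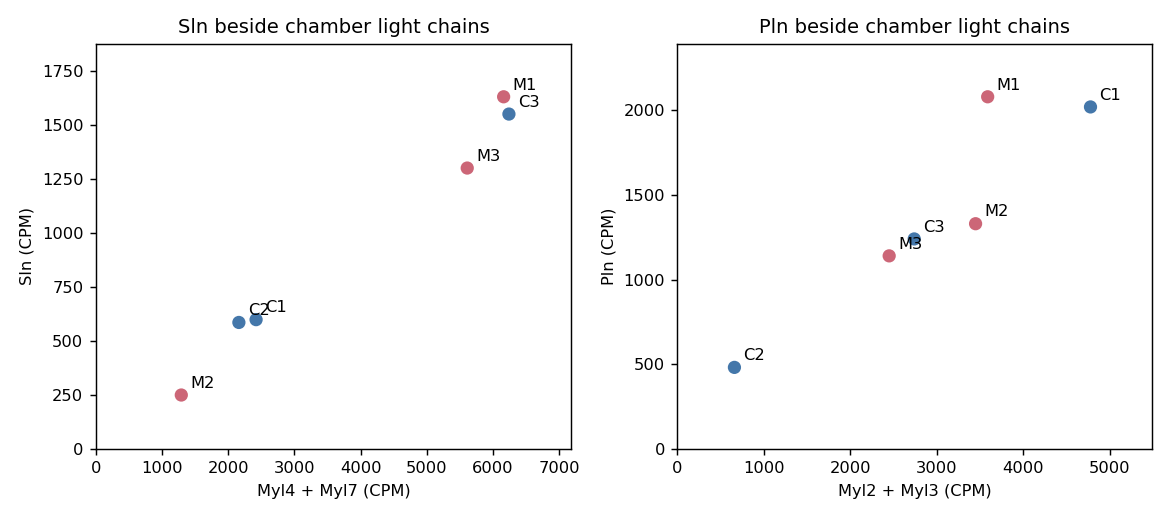
Left, Sln against the summed atrial light chains Myl4 and Myl7. Right, Pln against the summed ventricular light chains Myl2 and Myl3. All axes are in CPM from 0, and each point is 1 library (controls C1 to C3 in blue, mutants M1 to M3 in red). Sln rises with Myl4 and Myl7 from 249 CPM in mutant replicate 2 to 1630 CPM in mutant replicate 1, and Pln is lowest, at 481 CPM, in the library with the lowest Myl2 and Myl3, control replicate 2.

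With the cardiac marker score as a covariate, the log2 fold change of Slc8a1 was 0.52 (SE 0.09, adjusted p = 0.865 from the edgeR test), close to its value without the score and still short of the threshold. Per 1000 CPM of cardiac markers Slc8a1 was read at 1.13, 2.02 and 1.18 CPM in the controls and 1.56, 2.42 and 1.92 CPM in the mutants, so that the groups overlapped in that ratio. Slc8a1 is also used by smooth muscle. The sum of its 10 markers (led by Acta2, none at 0) was 6370 to 14300 CPM in the controls and 2490 to 6440 CPM in the mutants, with a slight overlap. In 4 of them all mutants lay below all controls, against 4.83% of all genes tested, and 0 of the 10 had an adjusted p under 0.05 in edgeR. The part of smooth muscle in the level of Slc8a1 was not tested.

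**Figure D5:**
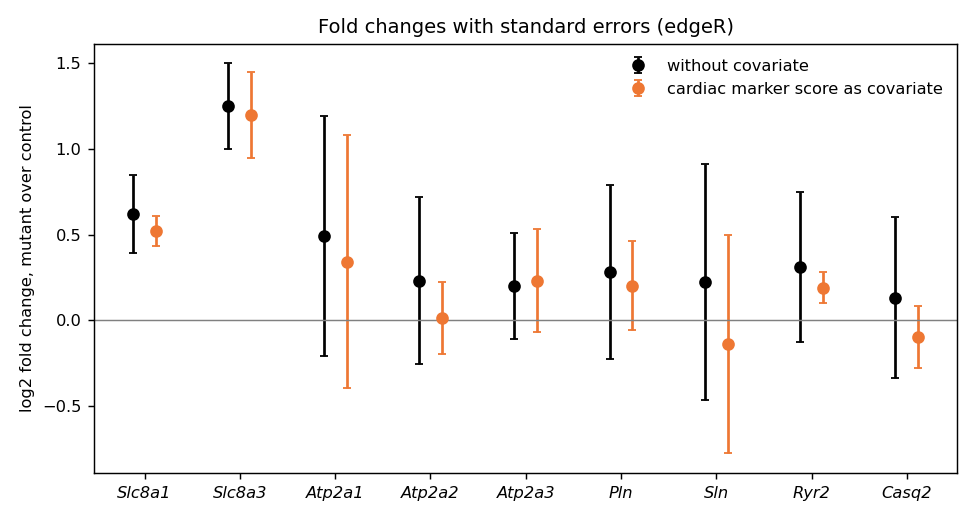
Log2 fold change, mutants over controls, of the 9 genes in the edgeR fit, without a covariate (black) and with the cardiac muscle marker score as a covariate (orange); bars are standard errors. With the covariate Slc8a1 goes from 0.62 to 0.52 and Slc8a3 from 1.25 to 1.20, although both overlap between the groups when divided by the summed cardiac markers, while the values of Atp2a2, Sln and Casq2 go to 0.01, -0.14 and -0.10.

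A wider list of 52 other calcium handling genes, with plasma membrane pumps, inositol trisphosphate receptors, store-operated channels and partners of the ryanodine receptor, was set beside these members. In edgeR 49 of them were tested, with 0 under 0.05 by adjusted p and 2 under 0.05 by unadjusted p. The log2 fold change was above 0 in 34 and below 0 in 15, with a median of 0.06, against 8013 above and 7341 below with a median of 0.01 over all genes tested. The median of the list was 0.02 when control replicate 2 was left out, 0.13 when control replicate 3 was, and 0.01 in limma-voom with sample quality weights. In 1 gene every mutant lay above every control (4.04% of all genes tested) and in 3 every mutant lay below (4.83%).

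The gene above was Atp2b2, a pump of the plasma membrane, at 7.17, 7.30 and 8.72 CPM in the controls and 8.98, 12.1 and 11.5 CPM in the mutants (log2 fold change 0.49, SE 0.18). Among the genes below were Jph3 and Jph4, which tie the store to the surface membrane in neurons. Jph4 was read at 1.87, 2.41 and 1.52 CPM in the controls and 1.24, 1.04 and 0.879 CPM in the mutants (log2 fold change -0.87, SE 0.34), and Jph3 at most at 1.24 CPM in any library. For these genes edgeR gave an adjusted p of 0.999.

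The highest levels per kilobase on that list belonged to S100a1, a calcium sensor of heart muscle, at a median of 871 CPM per kb, Calr (calreticulin, which binds calcium in the endoplasmic reticulum) at 204, and Tmem38a, a potassium channel of the store, at 129. S100a1 and Tmem38a were lowest in control replicate 2, at 335 and 103 CPM, and highest in mutant replicate 1, at 757 and 337 CPM, the same 2 libraries as for Atp2a2, Ryr2 and Casq2. Calr, which all cells use, ranged only from 547 to 711 CPM and was highest in control replicate 2. Casq1, the calsequestrin of skeletal muscle, was named after its values had been seen. It was read at 127, 23.1 and 66.1 CPM in the controls and 147, 65.5 and 36.1 CPM in the mutants, with a median level of 33.7 CPM per kb, below that of Casq2 in its lowest library.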

How the data were processed

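Aortic valve RNA of 3 control and 3 mutant mouse libraries was sequenced by the authors, and each column was matched to its condition by the sample description. The deposited values are estimated counts, fragments that the authors assigned to genes with Cuffdiff 2.1.1 after alignment to mm10 with TopHat2 2.0.13 and Bowtie2 2.2.1 (versions per the labels), not scaled for library size. At most 1.87% of values in a library were not whole, and these were rounded. Totals were 32218345 to 55728852 fragments.

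A gene was tested if 3 or more libraries had 10 or more counts, which left 15354. The main test was edgeR's quasi-likelihood test (edgeR 4.0.16, R 4.3.3) after TMM scaling, without covariates, with Benjamini-Hochberg adjustment over all genes (threshold 0.05). CPM are TMM-scaled. Cuffdiff itself was not rerun, since it works on aligned reads. Exon lengths and positions came from GENCODE M21 on GRCm38, to which 89.8% of symbols were matched, and upstream sequences from RefSeq. Shares and ratios within a library were compared with exact permutation tests. Limma 3.58.1 (voom) and DESeq2 1.42.0 were among the alternatives. The fit was tested on simulated data.

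The members and lists were chosen with earlier results of these data known. All 10 members are named. Of the calcium handling list the text names genes with an adjusted p under 0.05, the 3 per direction with the smallest unadjusted p among those whose groups did not overlap, and the 3 highest per kilobase. Of each marker list it names the highest gene and those at 0, and any other gene is said to be named after its values were seen. Some genes of these lists are not reported here.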

Additional observations from a re-analysis of the deposited data

How the results depend on the processing

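Of 119 fold changes of the 8 tested members under alternative settings, 100 kept their direction and 19 reversed, and 0 passed the threshold. Slc8a1 and Atp2a1 kept theirs in every alternative run. For Slc8a3, picked for its difference, the value ran from 1.10 to 1.42. A mean count of at least 100 left Atp2a1 untested. DESeq2 called 26 genes over all genes tested and every other setting called 0, and 0 tested members and 0 calcium handling genes were called in any of them. Sln reversed to -0.05 with limma-voom, -0.28 with sample quality weights, -0.03 with the replicate block and -0.14 with the cardiac score. Casq2 reversed to -0.25 with quality weights and -0.10 with the cardiac score, Atp2a2 to -0.09 with quality weights, and Atp2a3 to -0.22 with the skeletal muscle score. With that score the log2 fold change was 1.02 for Pln, 0.81 for Ryr2, 0.72 for Atp2a2, 0.68 for Casq2 and 0.46 for Sln, against 0.28, 0.31, 0.23, 0.13 and 0.22 without it, with adjusted p-values from edgeR of 0.541 to 0.89. The cause of these changes was not tested.

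Leaving out 1 library at a time gave ranges of -0.18 to 0.49 for Atp2a2, -0.02 to 0.51 for Atp2a3, -0.10 to 0.82 for Pln, -0.23 to 0.84 for Sln, -0.06 to 0.60 for Ryr2 and -0.32 to 0.48 for Casq2. The log2 ratio differences ran from -0.0183 to 0.465 for Pln to Atp2a2, from -0.70 to 0.282 for Sln to Atp2a2 and from -0.48 to -0.203 for Casq2 to Ryr2. Shares differed by -9.08 to -3.29 percentage points for Slc8a1, 4.59 to 8.93 for Slc8a3, -1.30 to 0.152 for Slc8a2, -0.0146 to 0.0191 for Atp2a1, -1.63 to 1.11 for Atp2a2 and -1.13 to 1.61 for Atp2a3. Ratios to the summed cardiac markers, added after seeing the data, ran from -0.057 to 0.17 for Atp2a2, 0.089 to 0.532 for Pln, -0.633 to 0.389 for Sln and -0.123 to 0.0454 for Casq2.

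Samples with the same replicate number correlated at 0.29, 0.08 and 0.03 in their deviations from the group means, so the number is not taken as a pairing. With it as a block, 0 genes were called, and the log2 fold change was 0.65 for Slc8a1. Control replicate 2 correlated better with mutant replicate 3 (0.20) than with its own number.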
